A study of Homo sapiens with 12 samples.

Results

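The tubulin isotypes are the genes whose proteins pair as α and β subunits to build microtubules. The 10 genes described here were chosen by name, 4 of α-tubulin (TUBA1A, TUBA1B, TUBA1C and TUBA4A) and 6 of β-tubulin (TUBB, TUBB2A, TUBB2B, TUBB3, TUBB4B and TUBB6). Each was read from the row of its Ensembl identifier on the primary assembly, and they are 10 of the 20595 genes of the table. The cells were the lung adenocarcinoma lines A549, with wild type p53, and H1792, with mutant p53, and the submitters describe both as MDM2 amplified. Each line was treated with DMSO, the solvent control, or with 1 μM RG7112, an inhibitor of MDM2, for 48 h. There were 3 replicates in each of the 4 groups, and each line is a single established culture whose replicates are not stated to come from separate cultures. The p-values then measure only the spread between these samples, which may be technical.

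Values are counts per 1000000 library counts (CPM) after TMM scaling, and CPM per kilobase where genes are compared with each other. Libraries held between 2011916 and 6218825 counts, and 3 counts stand for 0.465 to 1.43 CPM. Of the 6 epithelial markers, KRT8 had 11745 CPM in A549 and 992 CPM in H1792 with DMSO, whereas EPCAM was at 0.67 and 2.27 CPM and CDH1 at 12.5 and 0.43 CPM. In H1792, 4 of the 5 fibroblast markers had counts and their sum was 1117 to 1426 CPM, mainly from COL1A2 and COL1A1, against 9.53 to 22.2 CPM in A549. The leukocyte markers summed to at most 0.171 CPM and the endothelial ones to at most 1.91 CPM. With RG7112, 4 of 5 epithelial markers tested in H1792 were called lower, against 16.5% of all genes tested. Their sum there went from between 1818 and 2185 to between 1069 and 1337 CPM. In A549 1 of 5 was called higher, against 4.35% of all genes tested. The part of these markers in the tubulin results was not tested. Replicate 3 of A549 stood apart in both treatments. Its mean squared deviation from the other replicates was 16.2 to 26.1 times the counting variance. Between replicates 1 and 2 it was 5.28 and 5.81 times. Values without replicate 3 are given for the A549 responses of TUBA1B, TUBA1C, TUBA4A, TUBB3, TUBB6 and the sums. The gene lists were not fitted without it.

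Microtubules grow and shrink by the addition and loss of α and β dimers, and they carry cargo, shape the cell and form the mitotic spindle. The isotypes are close to each other over most of the protein and differ mainly in the tail at the end of the chain, where modifying enzymes act. TUBA1B, TUBA1C, TUBB and TUBB4B are widely used in dividing cells, TUBB3 is best known from neurons, and TUBA1A and TUBB2B from the developing brain. Cells also hold the level of tubulin mRNA down when free dimers accumulate. In that autoregulation TTC5 binds the first residues of the new chain on the ribosome, and the mRNA is then degraded.

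The coding starts are shown because TTC5 reads the peptide they encode. They are the first 12 coding bases of the principal GENCODE transcript, written 5′ to 3′, and the capitals mark positions where members of the same family (α or β) differ.
TUBA1A: atgcgtgaGtgc
TUBA1B: atgcgtgaGtgc
TUBA1C: atgcgtgaGtgc
TUBA4A: atgcgtgaAtgc
TUBB: atgAgGgaAatc
TUBB2A: atgCgCgaGatc
TUBB2B: atgCgTgaGatc
TUBB3: atgAgGgaGatc
TUBB4B: atgAgGgaAatc
TUBB6: atgAgGgaGatc
All 4 α genes shared 11 of these 12 bases. Among the β genes 3 of the 12 positions differed. The differing bases are silent, and within each family the 12 bases encode the same residues.

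TUBA1A, TUBA1B and TUBA1C sit close together on chromosome 12 (GRCh38). TUBA1B (ENSG00000123416) lies at chr12:49127782-49131397 on the minus strand, TUBA1A (ENSG00000167552) at chr12:49184796-49189324 on the minus strand, and TUBA1C (ENSG00000167553) at chr12:49188736-49274603 on the plus strand, where its annotated span overlaps that of TUBA1A. TUBA4A (ENSG00000127824) lies at chr2:219249711-219278170 on the minus strand. Of the β genes, TUBB (ENSG00000196230) is at chr6:30720201-30725426 on the plus strand, TUBB2A (ENSG00000137267) at chr6:3153669-3157526 and TUBB2B (ENSG00000137285) at chr6:3224261-3231730, both on the minus strand. TUBB3 (ENSG00000258947) is at chr16:89921392-89938761, TUBB4B (ENSG00000188229) at chr9:137241213-137243707 and TUBB6 (ENSG00000176014) at chr18:12307669-12344320, all on the plus strand. All values are of whole genes, with exons joined in transcripts.

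How far counts can be assigned to one isotype depends on how much sequence it shares. The coding sequences of TUBA1A and TUBA1C were 97.2% and 96.8% identical to that of TUBA1B, with an unbroken identical run of 326 bases between TUBA1B and TUBA1C. TUBA4A was 85.7% identical to TUBA1B. Of the β pairs, TUBB2A and TUBB2B were the closest at 98.2%, and the other β pairs were between 80.9% and 87.8% identical.

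The labels give reads of 38 bases from each end. Of the 38-base windows of the principal transcript, 68.4% in TUBA1B, 48.2% in TUBA1A and 30.2% in TUBA1C were also found in another gene. TUBB2A shared 68.0% and TUBB2B 53.1%, mainly with each other. TUBB3 shared 90.0%, of which nearly all (89.4% of its windows) was with AC092143.1, a gene annotated as a readthrough transcript on the same strand. TUBB6 (2.9%), TUBA4A (8.0%) and TUBB4B (14.6%) shared little. The split of counts between TUBA1A, TUBA1B and TUBA1C, between TUBB2A and TUBB2B, and between TUBB3 and AC092143.1 is therefore uncertain, and each set is also given summed.

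**Figure D1:**
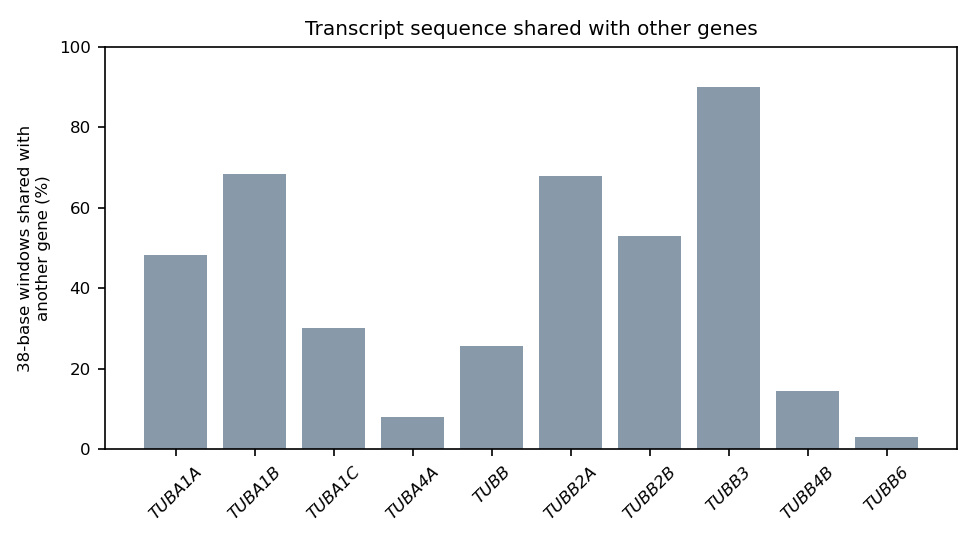
Share of the 38-base windows of each member's principal transcript (x axis, gene; y axis, percent) that also occur in a transcript of another gene. TUBB3 stands at 90.0%, TUBA1B at 68.4% and TUBB6 at 2.9%.

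The row of TUBB cannot be taken as a measure of the gene. GENCODE names TUBB for 32 transcripts, 28 of them outside the primary assembly, on alternate copies of its region of chromosome 6, and the primary row held 0 to 12 counts in any library. Rows of the alternate copies were not analysed here, so whether they hold counts of TUBB was not tested. The summed level of β-tubulin is therefore the sum of the other β genes in effect, and its size against α-tubulin says nothing of the protein pair. TUBB2A was nearly as sparse, with at most 13 counts. Neither TUBB nor TUBB2A passed the filter on low counts in any of the 4 comparisons, and 8 of the 10 members were tested in each.

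TUBA1B was the most abundant isotype in every group, and the order of levels was similar in both lines with DMSO. In A549 with DMSO its level was 4157 ± 170 CPM per kilobase (SD, n = 3), followed by TUBA1C at 930 ± 136. TUBA4A (154 ± 12.8) and TUBB6 (144 ± 16.2 CPM per kilobase) came next and overlapped each other. TUBB3 (22.8 ± 1.9) and TUBB4B (10.9 ± 2.6) lay lower, and TUBA1A (3.9 ± 2.6) and TUBB2B (2.8 ± 2.8 CPM per kilobase) overlapped. In H1792 with DMSO, TUBA1B had 4110 ± 154 and TUBA1C 911 ± 49.6 CPM per kilobase. TUBB6 (131 ± 4.4) and TUBA4A (122 ± 16.9) again overlapped, as did each neighbouring pair among TUBB3 (19.4 ± 3.2), TUBB4B (14.2 ± 2.7), TUBB2B (7.0 ± 6.8) and TUBA1A (6.1 ± 1.8 CPM per kilobase).

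The levels of the isotypes in the 2 lines were compared with DMSO, in one fit over the 12 samples. None of the 8 members tested was called (edgeR quasi-likelihood test, adjusted p under 0.05), and 0 had an unadjusted p under 0.05. DESeq2 also called 0. Over all 11666 genes tested, 25.6% were called higher in A549 and 22.0% lower. TUBA1B differed by 0.02 ± 0.09 on the log2 scale (A549 over H1792, SE, adjusted p = 0.901), and TUBA1C by 0.03 ± 0.14 (adjusted p = 0.880). TUBA4A was at 313, 320 and 364 CPM in A549 and at 269, 298 and 225 CPM in H1792. The groups did not overlap, and the log2 difference of 0.33 ± 0.18 was not called (adjusted p = 0.156). It was called in the 6 DMSO samples alone (0.38, adjusted p = 0.0331). With scaling by library size only, TUBA1B, TUBA1C, TUBA4A and TUBB6 were all called higher in A549, by 0.28, 0.28, 0.59 and 0.40 on the log2 scale.

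**Figure D2:**
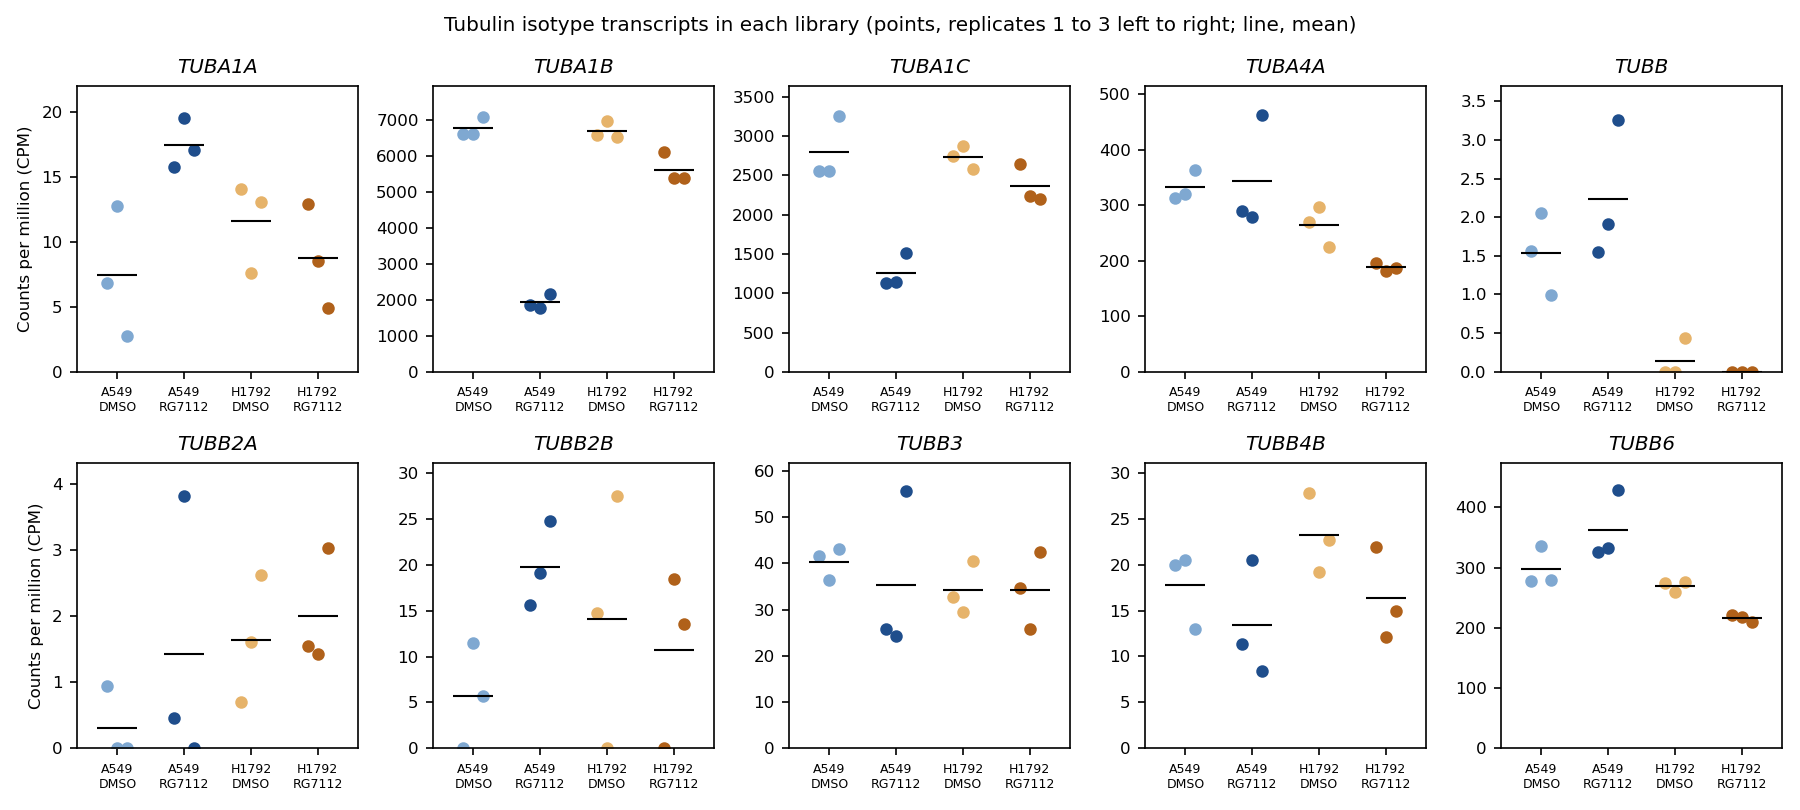
CPM of the 10 members in each library (y axis, from 0 in each panel; x axis, group), with points for replicates 1 to 3 and a line at the mean. TUBA1B and TUBA1C fall in A549 with RG7112, where TUBA1B lies between 1778 and 2159 CPM against 6601 to 7082 CPM with DMSO.

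In A549, RG7112 lowered the 2 major α isotypes. TUBA1B was at 6601, 6605 and 7082 CPM with DMSO and at 1853, 1778 and 2159 CPM with RG7112. All 3 treated libraries lay far below all controls. The log2 fold change was −1.81 ± 0.13 (SE, adjusted p = 0.000661), and the ratio of the group means was 0.285.

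TUBA1C was at 2550, 2559 and 3259 CPM with DMSO and at 1134, 1138 and 1514 CPM with RG7112. Replicate 3 was the highest in both groups, and the groups did not overlap. The log2 fold change was −1.14 ± 0.17 (adjusted p = 0.00979), a ratio of 0.452. Without RG7112 replicate 1 or replicate 2 the adjusted p rose to 0.0519 and 0.0523. Without replicate 3 of both treatments the fold changes were −1.86 for TUBA1B (adjusted p = 0.00083) and −1.16 for TUBA1C (adjusted p = 0.00122). With the counts of TUBA1A, TUBA1B and TUBA1C summed before the fit, the fold change was −1.57 ± 0.14 (adjusted p = 0.00147), a value that does not depend on how reads were divided among these 3 genes.

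In A549, 2 of the 8 members tested were called lower and 0 higher, where 4.03% of the 10739 genes tested were lower and 4.35% higher. The CPM of 4 members did not overlap between treatments (TUBA1B and TUBA1C below, TUBA1A and TUBB2B above), against 32.4% of all genes tested. The median log2 fold change was −0.07 over the 8 members and −0.01 over all genes tested.

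TUBA4A did not follow the other α genes. It was at 313, 320 and 364 CPM with DMSO and at 290, 279 and 463 CPM with RG7112, and the groups overlapped because replicate 3 was the highest of the treated libraries. Its log2 fold change was 0.05 ± 0.21 (adjusted p = 0.918), and −0.15 ± 0.06 without replicate 3 of both treatments (adjusted p = 0.223). TUBA1A, the scarce member, was at 6.9, 12.8 and 2.7 CPM with DMSO and at 15.8, 19.5 and 17.1 CPM with RG7112. All treated values were above all controls, but the difference of 1.20 ± 0.51 on the log2 scale was not called (adjusted p = 0.211). Its windows are shared mainly with TUBA1B and TUBA1C, whose counts were many times higher.

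**Figure D3:**
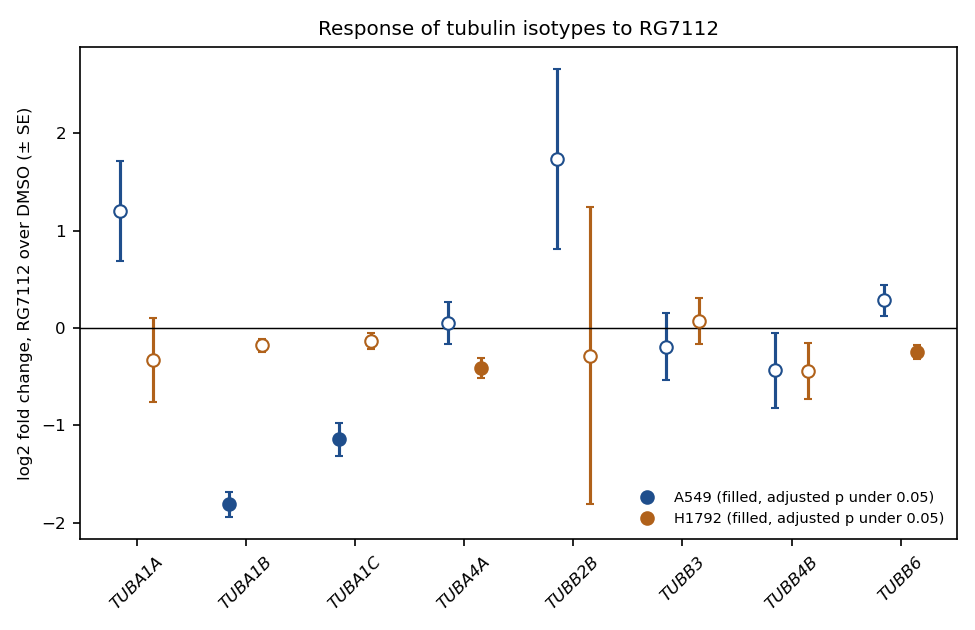
The log2 fold change of RG7112 over DMSO (y axis) with its SE for the 8 members tested (x axis) in A549 and H1792, with filled points for an adjusted p under 0.05. TUBA1B (−1.81) and TUBA1C (−1.14) in A549 lie below all H1792 values, and the calls in H1792 are TUBA4A (−0.41) and TUBB6 (−0.25).

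The sum of the 4 α genes fell from 5244 ± 316 to 1775 ± 243 CPM per kilobase in A549 (SD, n = 3). With DMSO the libraries were at 5055, 5067 and 5609, and with RG7112 at 1659, 1611 and 2054 CPM per kilobase. The log2 difference was −1.57 (exact permutation test, two-sided, p = 0.1, the smallest that 3 against 3 allows). The sum of the 6 β rows was 181 ± 18.1 and 215 ± 37.2 CPM per kilobase, and its log2 difference of 0.24 was within the spread (exact permutation test, p = 0.3). Without replicate 3 of both treatments the β sums were 187 and 194 CPM per kilobase, a log2 difference of 0.06, and the α difference was −1.63.

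The row of TUBA1B fell by more than those of the other α genes, and the make-up of the α sum differed between treatments without overlap. The split of counts among TUBA1A, TUBA1B and TUBA1C is uncertain, so their single shares are too. TUBA1B was not tested directly against TUBA1C. TUBA1B gave 79.3% ± 1.5 of the α sum in A549 with DMSO and 67.0% ± 2.1 with RG7112, a difference of −12.3 percentage points. The share of TUBA1C went from 17.7% ± 1.5 to 23.6% ± 0.9 and that of TUBA4A from 2.93% ± 0.07 to 8.84% ± 1.37. TUBA1A stayed under 1% in every library. The treated and control shares of all 4 genes did not overlap in A549 (exact permutation test, two-sided, p = 0.1 for each, the smallest possible). In H1792 the share of TUBA1B was 79.8% ± 0.6 with DMSO and 79.7% ± 0.4 with RG7112, and the ranges of all 4 shares overlapped. Without division by length, TUBA1B gave 68.5% of the α counts in A549 with DMSO and 54.5% with RG7112. On that scale TUBA4A gave 3.36% and 9.55%, values that do not depend on how counts were split among the other α genes.

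**Figure D4:**
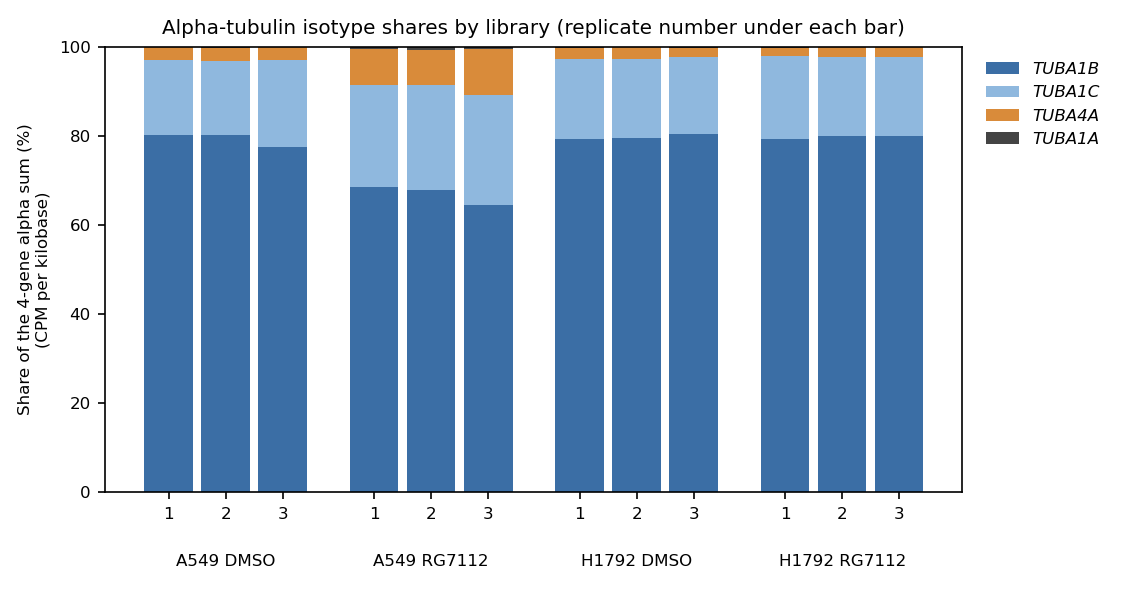
Share of each α gene in the α sum of CPM per kilobase (y axis, percent) for the 12 libraries (x axis, replicate within group). TUBA1B takes 64.6% to 68.6% in the A549 libraries with RG7112 and 77.6% to 80.5% in the other 9.

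The fall of TUBA1B and TUBA1C in A549 went along with that of the proliferation genes. Of 9 such genes tested, 8 were called lower and 0 higher, against 4.03% and 4.35% of all genes tested, with a median log2 fold change of −3.98. Their summed level was 1098 to 1271 CPM with DMSO and 94.4 to 106 CPM with RG7112, and MKI67 (−4.35), CCNB1 (−3.27) and AURKA (−2.46), which serve the cell cycle and mitosis, had the smallest p. The part of the cell cycle in the tubulin result was not tested. In bulk RNA, fewer cells of a type and less RNA per cell cannot be told apart. In H1792 the same genes summed to 1097 to 1180 CPM with DMSO and to 1144 to 1307 CPM with RG7112. Of the 9 tested there, 3 were called higher and 1 lower, against 17.7% and 16.5% of all genes tested. The median was 0.05, and BUB1 (1.12), PLK1 (−1.31) and CDK1 (0.84) had the smallest p.

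The genes whose pattern was most like that of TUBA1B over the 12 samples, after subtraction of each line's mean, were MCM5 (r = 0.998), a subunit of the replicative helicase, SLC1A5 (r = 0.998), a glutamine transporter, and H2AFX (r = 0.996), which encodes a histone variant. They are the first 3 among 11658 genes by Pearson's r of log2 CPM. The samples share libraries and treatment, and the r values are a description. For TUBB6, the most abundant β gene with a usable row, they were ZFP82 (r = 0.971), HDAC5 (r = 0.957) and PGGHG (r = 0.954). ZFP82 was at only 0.93 to 4.89 CPM, so its value rests on few counts.

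The promoters of TUBA1B and TUBA1C are shown because these are the genes that fell. The 250 bases before the RefSeq start of TUBA1B (chr12:49131396-49131645, GRCh38.p14, minus strand, 5′ to 3′) have GGGCGG or its complement in capitals. For TUBA1C only 30 bases are given (chr12:49264900-49264929, plus strand), with TTTGAA and CCAAT in capitals.
TUBA1B promoter: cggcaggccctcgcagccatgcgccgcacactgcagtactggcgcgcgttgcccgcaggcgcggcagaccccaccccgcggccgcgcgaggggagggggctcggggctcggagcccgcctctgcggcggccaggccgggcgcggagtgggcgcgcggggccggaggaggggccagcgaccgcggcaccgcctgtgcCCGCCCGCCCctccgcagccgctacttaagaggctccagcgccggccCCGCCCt
TUBA1C promoter stretch: ttggTTTGAActTTTGAAtccgCCAATcag
The CCAAT box is bound by NF-Y. TTTGAA is the core of the element called CHR in cell cycle promoters, and TTCGAA is a variant of it. The motif GGGCGG is the GC box bound by SP1. Each was searched on both strands in the 250 bases before the start, and overlapping matches were counted separately. The TUBA1B window, of which 81.2% is G or C, held 3 GC boxes, 2 of them overlapping, and 0 of the other motifs. The window of TUBA1C held the CHR core in 2 places, the CCAAT box in 1 and the GC box in 2. Of the members not called in A549, TUBA4A held the GC box in 4 places and 0 of the other motifs, TUBB4B held the CCAAT box in 3 places and the CHR core in 1, and TUBA1A held the CCAAT box in 2. TUBB3 held the CHR variant in 1 place, the CCAAT box in 1 and the GC box in 3. TUBB6 held the CCAAT box in 1 place and the GC box in 6. TUBB2B and TUBB each held the CCAAT box in 1 place and the GC box in 1, and TUBB2A held the GC box in 5. Of 35116 promoters of the same length, 32.0% held the CCAAT box, 13.3% the CHR core, 1.19% its variant and 42.6% the GC box. In TUBA1C the first TTTGAA begins 3 bases before the start of the principal GENCODE transcript and the rest of the printed stretch lies inside it, so the place of the start differs between the 2 annotations. These matches are of letters only, and no binding was measured.

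In H1792, 2 members were called, both lower, and by less than the A549 calls. TUBA4A was at 269, 298 and 225 CPM with DMSO and at 196, 182 and 188 CPM with RG7112. The groups did not overlap, and the log2 fold change was −0.41 ± 0.10 (SE, adjusted p = 0.0202). TUBB6 was at 274, 260 and 277 CPM with DMSO and at 222, 218 and 210 CPM with RG7112, again without overlap, and its log2 fold change was −0.25 ± 0.07 (adjusted p = 0.0390).

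TUBA1B was at 6573, 6975 and 6513 CPM with DMSO and at 6090, 5382 and 5377 CPM with RG7112. The treated libraries were all lower, but edgeR did not call the log2 fold change of −0.18 ± 0.06 (adjusted p = 0.0735). It was called by DESeq2 (−0.18, adjusted p = 0.0181) and by edgeR without RG7112 replicate 1 (−0.24, adjusted p = 0.00815). TUBA1C was at 2746, 2876 and 2579 CPM with DMSO and at 2644, 2231 and 2201 CPM with RG7112. These groups overlapped, and the difference was −0.14 ± 0.08 (adjusted p = 0.233). Of the 8 members tested, 2 were called lower and 0 higher, where 16.5% of the 9914 genes tested were lower and 17.7% higher. The CPM of 3 members (TUBA1B, TUBA4A and TUBB6) did not overlap between treatments, against 53.3% of all genes tested. The median log2 fold change was −0.26 over the 8 members and 0.01 over all genes tested. The α sum was 5149 ± 214 CPM per kilobase with DMSO and 4330 ± 340 with RG7112, a log2 difference of −0.25 (exact permutation test, two-sided, p = 0.1, the smallest possible). The β sum was 173 ± 15.7 CPM per kilobase with DMSO (155 to 186) and 141 ± 2.8 with RG7112 (138 to 143), without overlap.

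The H1792 calls rested on the scaling. Across 9165 genes, the log2 fold change in H1792 fell with GC content (Spearman's rho −0.496, across genes, which are not independent replicates), and the GC content of the 10 members was 51.6% to 62.6%, above the median of 49.4% of these genes. After a correction for GC content, TUBA4A was at −0.10 (adjusted p = 0.496) and TUBB6 at 0.20 (adjusted p = 0.119), so that TUBB6 changed direction. With library size only, the median of all genes moved from 0.01 to 0.27, and TUBA4A was at −0.15, TUBB6 at 0.01 and TUBA1B at 0.08, of which 0 were called. In A549 rho was 0.261, and TUBA1B (−1.86) and TUBA1C (−1.19) were called after the GC correction. TUBA4A lost its call in H1792 without DMSO replicate 1 or 2 or RG7112 replicate 2 or 3, and TUBB6 without any replicate other than DMSO replicate 2.

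**Figure D5:**
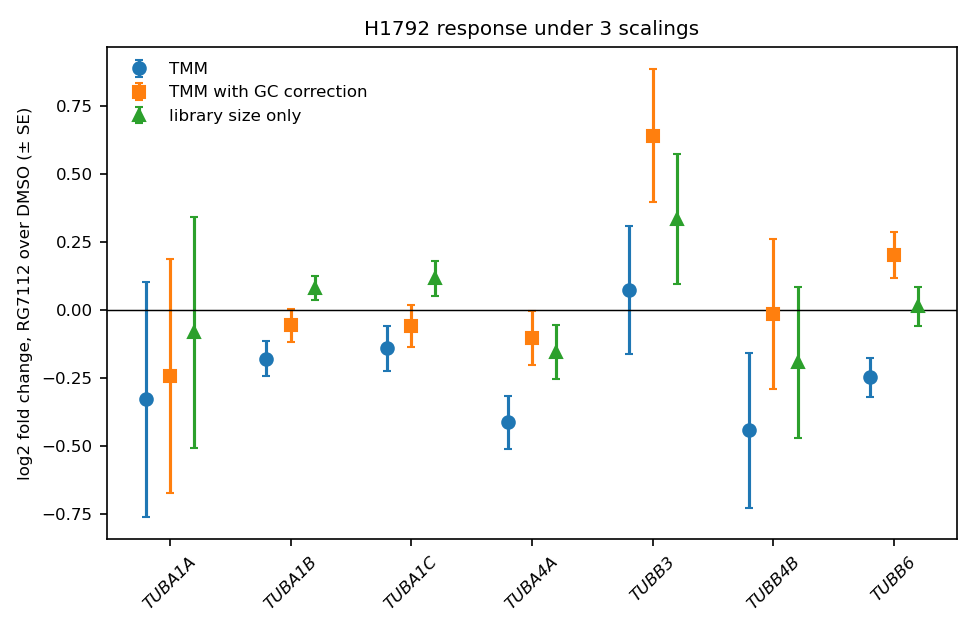
The log2 fold change in H1792 (y axis, with SE) for 7 members (x axis) under TMM, TMM with GC correction and library size only. TUBB6 moves from −0.25 to 0.20 with the GC correction and to 0.01 with library size only.

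The response differed between the lines for 3 of the 8 members tested. Of these, 2 were lower in A549 relative to H1792 and 1 was higher, where 11.4% of the 11666 genes were lower and 10.4% higher. For TUBA1B the A549 response minus the H1792 response was −1.56 ± 0.13 on the log2 scale (SE, adjusted p = 4.58e-05), and for TUBA1C it was −0.93 ± 0.20 (adjusted p = 0.00944). Both were called with the GC correction (−1.71 and −1.03) and with library size only (−1.96 and −1.33). The summed counts of TUBA1A, TUBA1B and TUBA1C differed by −1.33 ± 0.15 (adjusted p = 0.000322). For TUBB6 the difference was 0.60 ± 0.17 (adjusted p = 0.0290), but it was −0.01 with the GC correction (adjusted p = 0.988) and 0.19 with library size only (adjusted p = 0.399). TUBA4A was not called (0.54 ± 0.26, adjusted p = 0.155).

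TUBB6 was the leading β gene among the usable rows. In A549 it was at 277, 336 and 279 CPM with DMSO and at 327, 333 and 429 CPM with RG7112. The groups overlapped, and the log2 fold change of 0.28 ± 0.16 was not called (adjusted p = 0.330). Without replicate 3 of both treatments it was 0.11 ± 0.11.

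TUBB3 was at 41.5, 36.5 and 43.1 CPM in A549 with DMSO and at 25.7, 24.3 and 55.7 CPM with RG7112. Replicate 3 was above all controls and the other treated libraries were below them. The log2 fold change was −0.19 ± 0.34 (adjusted p = 0.789), and −0.63 ± 0.18 without replicate 3 of both treatments (adjusted p = 0.0977). AC092143.1, which shares most of its windows, was at 13.1, 13.8 and 10.2 CPM with DMSO and at 23.1, 12.4 and 36.4 CPM with RG7112. With both rows summed the log2 fold change was 0.17 ± 0.33 in A549 and 0.21 ± 0.20 in H1792, where AC092143.1 had no count in 4 of the 6 libraries. TUBB3 in H1792 was between 25.8 and 42.4 CPM in all 6 libraries, with overlapping groups. The neuronal or neuroendocrine markers summed to 19.7 to 25.6 CPM in A549 with DMSO and to 45.3 to 47.0 CPM with RG7112. Of the 2 tested, 1 was called higher, RBFOX3 (1.14 ± 0.22, adjusted p = 0.0227), against 4.35% of all genes tested. The part of these markers in the TUBB3 values was not tested.

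TUBB4B was at 20.0, 20.5 and 13.0 CPM in A549 with DMSO and at 11.3, 20.5 and 8.4 CPM with RG7112, a log2 fold change of −0.43 ± 0.39. In H1792 it was at 27.8, 19.2 and 22.7 CPM with DMSO and at 22.0, 12.1 and 14.9 CPM with RG7112, a difference of −0.44 ± 0.28. The groups overlapped in both lines and neither was called. Whether the TUBB4B estimates lost reads to other copies cannot be told from gene counts and was not tested. Its low rank among the β genes is therefore that of its row.

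TUBB2B was listed at 0 in 3 of the 12 libraries and at 5.7 to 27.5 CPM in the other 9. In A549 the treated libraries (15.7, 19.1 and 24.7 CPM) were all above the controls (0, 11.4 and 5.7 CPM), and the log2 fold change of 1.73 ± 0.92 was not called (adjusted p = 0.313). It was 1.18 without DMSO replicate 1, which was at 0, and 2.71 without DMSO replicate 2, and was called in neither. Summed with TUBB2A, its closest relative, it was 1.76 ± 0.68 (adjusted p = 0.172). In H1792 the groups overlapped, at 14.8, 0 and 27.5 CPM with DMSO and at 0, 18.5 and 13.5 CPM with RG7112. TUBB2A alone was between 0 and 3.8 CPM in all libraries. The TUBB row was at 1.0 to 3.3 CPM in A549, and in H1792 it had 1 count in 1 library and 0 in the other 5.

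Other tubulins were scarce, with 11 rows of 13 genes that summed to 16.6 to 46.3 CPM. In A549, TUBG2, a γ-tubulin (−0.44 ± 0.42), and TUBD1, the δ-tubulin (−0.65 ± 0.50), were tested and 0 were called, with 0 also at an unadjusted p under 0.05 and by DESeq2. In H1792, TUBE1, the ε-tubulin of centrioles, rose by 1.09 ± 0.24 (adjusted p = 0.0145) and TUBD1 was at 0.23 ± 0.38. The responses of TUBE1 differed between the lines (−1.89 ± 0.46, adjusted p = 0.0158), and those of TUBD1, TUBG1 and TUBG2 were not called as different by edgeR. DESeq2 called TUBG1 as well (adjusted p = 0.0490, against 0.0700 with edgeR).

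The genes that fold, modify and organise tubulin were counted from lists of the pathway. All gene lists were fitted only with edgeR after TMM scaling and with DESeq2. They were not refitted with the GC correction, library size only, a replicate block or a replicate left out. The H1792 list calls were therefore not tested against the scalings that changed the member calls there. The chaperonin CCT folds new tubulin. In A549, 2 of 11 chaperonin and prefoldin genes tested were called lower and 0 higher, CCT5 (−0.91 ± 0.13, adjusted p = 0.00741) and TCP1 (−1.09 ± 0.21, adjusted p = 0.0247), where 4.03% of all genes were lower and 4.35% higher. The list median was −0.45 against −0.01 over all genes. In H1792, 6 of 12 were lower and 1 higher, against 16.5% and 17.7% of all genes, with a median of −0.69 against 0.01, and CCT3 (−0.94), CCT4 (−1.06) and CCT7 (−0.97) had the smallest p. The higher gene, named after its value was seen, was TCP1 (0.69 ± 0.13, adjusted p = 0.0106). The responses of TCP1 differed between the lines (−1.71 ± 0.25, adjusted p = 0.00148). Tubulin cofactors, which assemble the dimer, were called in 0 of 6 in A549 (1 at an unadjusted p under 0.05, 0 by DESeq2). In H1792, 1 of 5 was called, the lower TBCB (−0.35 ± 0.11), against 16.5% of all genes lower.

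Of the 3 autoregulation genes (TTC5, SCAPER and CNOT11), 0 were called in A549, with 0 at an unadjusted p under 0.05 and 0 by DESeq2. In H1792 TTC5 was called higher (0.42 ± 0.13, adjusted p = 0.0437), where 17.7% of all genes tested were higher. DESeq2 called 0 of the 3. In the difference between responses 0 of the 3 were called by edgeR, with 1 at an unadjusted p under 0.05, and 1 by DESeq2. Levels of mRNA alone do not show how fast tubulin mRNA was degraded.

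Of the enzymes that modify tubulin tails or acetylate it, 1 of 13 was called higher in A549 and 0 lower, against 4.35% and 4.03% of all genes tested. It was TTLL3, a glycylase (1.32 ± 0.25, adjusted p = 0.0216), and 5 had an unadjusted p under 0.05. DESeq2 called 3, the others being AGBL5 (adjusted p = 0.0122) and SIRT2 (adjusted p = 0.0267), which are named here after their values were seen. In H1792, 1 of 11 was higher (TTLL7, 0.75) and 1 lower (TTLL4, −0.50), against 17.7% and 16.5% of all genes. DESeq2 did not call TTLL7 (adjusted p = 0.0689). The γ-tubulin ring complex, which nucleates microtubules, had 0 of 9 genes called in A549 (1 at an unadjusted p under 0.05, 1 by DESeq2) and 3 of 8 lower in H1792, TUBGCP2 (−2.22 ± 0.26), MZT2B (−0.84 ± 0.19) and CDK5RAP2 (−0.66 ± 0.19), against 16.5% of all genes.

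Among 22 genes tested that bind, cap or sever microtubules, 3 were called higher and 1 lower in A549, against 4.35% and 4.03% of all genes. STMN1, which encodes the dimer-binding stathmin, fell by 2.65 on the log2 scale (SE 0.22, adjusted p = 0.00101), whereas DST (1.15) and MAPRE3 (1.77) rose. The response of STMN1 differed between the lines by −2.51 ± 0.24 (adjusted p = 0.000111). In H1792, 6 of 21 were higher and 2 lower, against 17.7% and 16.5% of all genes, and MACF1 (0.68), CLIP1 (0.72) and CAMSAP1 (0.96) had the smallest p. The 2 lower genes, named after their values were seen, were MAP1B (−4.45 ± 0.72, adjusted p = 0.00651) and MAP7D1 (−0.33 ± 0.07, adjusted p = 0.0117).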

How the data were processed

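Poly-A RNA of A549 and H1792 cells was sequenced from both ends. According to the submitters' processing notes and the paper's methods, kallisto 0.45.0 estimated transcript abundances on GRCh38, and the authors summed these by gene. They deposited the expected counts (estimated counts, here whole numbers), not scaled between libraries. The strand setting is not given in the sources used here. All 12 columns were used, with groups and replicate numbers from the titles. The column headings give 0.1 μM RG7112 where the labels give 1 μM, the read length differs between labels and paper, and a sentence of the paper exchanges the p53 status of the lines, which was taken from the series' design text.

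The 10 members and all gene lists were chosen with earlier results of these data known. All members, every other tubulin tested and at most 3 called genes per list and line with the smallest p were named. Symbols, lengths and GC content came from GENCODE v29, which held 18011 of 20595 identifiers. The other 2584 took 3.92% to 4.93% of the counts. RefSeq promoters (GRCh38.p14) were found for all 10 members, and for genes with several starts the one nearest the principal transcript was used. Length was that of the principal transcript. Genes were kept by filterByExpr (minimum count 10, total 15), scaled by TMM and tested with edgeR 4.0.16 (glmQLFit with robust dispersion, glmQLFTest), per line for the responses and over 12 samples for the interaction and the comparison of lines. P-values were Benjamini-Hochberg adjusted over all genes tested and called under 0.05. The fits were tested on simulated data. Sums and shares were compared by two-sided exact permutation tests (scipy 1.17.1). No 2 replicates were the same library (mean squared deviations 5.28 to 26.1 times the counting variance). DESeq2 1.42.0, other scalings, filters and thresholds, a GC correction, a replicate block and leaving out replicates were tried. Leaving out A549 replicate 3 of both treatments and summing rows were added after seeing the data.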

Additional observations from a re-analysis of the deposited data

Results flagged for a closer look

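The response of 3 members differed between the cell lines by a test of the difference itself, the interaction over 12 samples (edgeR quasi-likelihood test, Benjamini-Hochberg adjusted). The A549 response minus the H1792 response was −1.56 on the log2 scale for TUBA1B, −0.93 for TUBA1C and 0.60 for TUBB6. All 3 A549 libraries with RG7112 were below their controls for TUBA1B and TUBA1C. The TUBB6 value was −0.01 with the GC correction and lost its call without any 1 of the 6 H1792 libraries or A549 DMSO replicate 1 (adjusted p = 0.0529 to 0.104). Groups of 3 were not searched for single outlying samples.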

How the results depend on the processing

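TUBA1B in A549 was called in all 17 alternative fits (−1.89 to −1.75 on the log2 scale), and TUBA1C in 15 of 17. Of 624 alternative values of single members, 540 kept their sign and side of the threshold, 34 lost the call, 10 gained one, 7 were called in one fit and of other sign, and 33 were not called in either and changed sign. The 7 were TUBB6 in H1792 with library size only (0.014), with the GC correction (0.20) and with the replicate block and GC correction (0.21), TUBB6 in the difference with the GC correction (−0.0085) and with block and correction (−0.0041), and TUBA1A when summed with TUBA1B and TUBA1C (−1.57 in A549, −1.33 in the difference). Sums in H1792 changed sign with library size only, to 0.081 for α and 0.044 for β. The causes were not tested.

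Members called in H1792 were 2 under TMM and RLE, 3 with DESeq2 (TUBA1B added), 1 without a filter or with at least 10 counts in every sample, and 0 with library size only, the GC correction, a log2 threshold of 1, the 12-sample fit or the replicate block, with or without the GC correction. Leaving out single replicates gave 1 to 2 in A549, 0 to 3 in H1792, 2 to 3 in the difference and 0 to 1 between lines with DMSO. The difference kept 1 call (TUBA1B) with a log2 threshold of 1. Between lines with DMSO, 4 were called with library size only, 1 without a filter (TUBB, on 0 to 12 counts), 1 with at least 10 counts in every sample and 1 in the 6 DMSO samples.

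Replicate numbers did not pair the samples in H1792, where same-numbered deviations correlated at −0.039, −0.018 and −0.0002. In A549 they correlated at 0.145, 0.067 and 0.293. Replicates 1 and 2 there correlated across numbers as well, at 0.144 and 0.111. In A549, replicate 3 correlated at −0.232 to −0.140 with the other numbers, so the 2 libraries of replicate 3 deviated together. With the replicate block, calls were 2 in A549, 0 in H1792 and 2 in the difference, where TUBB6 was lost. For the comparison of lines a block within lines cannot be fitted, and alternate-assembly rows were not added to the primary TUBB row, so these planned settings were not run. Of 80 alternative isotype shares, 37 moved by over 1 SD with the length used. Members under about 30 CPM rest on few counts, which widens their errors.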
